A study of Mus musculus with 8 samples.

Results

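Spermatogonial stem cells are kept in balance between self-renewal and differentiation by a small set of germ cell genes, of which 8 are described here across 3 kinds of culture. These are the transcription factor genes Sohlh1 and Sohlh2, the RNA-binding protein genes Nanos1, Nanos2, Nanos3 and Dazl, the homeobox gene Rhox13 and the surface protein gene Tex101. The genes were taken as a fixed list, chosen with earlier results of these data known. Each was read from the probe set that carries its symbol alone. All 8 of 8 had such a probe set, 1 each, among 19938 genes so represented and 28944 probe sets tested.

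In the mouse testis NANOS2 holds spermatogonia in the stem cell state by bringing the CCR4-NOT deadenylase to its target mRNAs. SOHLH1 and SOHLH2, basic helix-loop-helix factors that pair with each other, are needed for spermatogonia to differentiate, a step marked by the receptor gene Kit and started by retinoic acid. DAZL binds mRNAs of germ cells and promotes their translation, and is found from early germ cells onwards.

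The data are 8 arrays of total RNA from cultured mouse spermatogonial stem cells. In the serial transplant, long culture group (2 arrays) the labels give a serial-transplanted donor source of 1500 days and 14 to 18 months of culture. The young donor, long culture group (3 arrays) came from 8-day donors and was cultured for 14 to 18 months, and the young donor, short culture group (3 arrays) from 8-day donors cultured for 7 to 10 weeks. The study set these groups against each other to find genes that differ with ageing of the stem cells in the animal and in culture. Whether the 1500 days are the age of an animal or of the transplanted line is not stated. This age and serial transplantation come together in 1 group, so their parts cannot be told apart. The sources used here do not give the mouse strain, any pooling of animals or the number of independent cultures. The p-values therefore rest on array-to-array spread alone, which may be technical. Values are log2 signals, on which a difference of 1 is a doubling. A probe set near 6.94, the median of all, is dim and may be background.

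The labelled cell type was checked against 12 germ cell markers, Dazl among them, all of which had group means above that median in every group. Cdh1 was only just above it and so dim in young short (6.95) and young long culture (6.99). Their mean per array was 10.51 to 10.59 in serial transplant long culture, 10.42 to 10.53 in young long culture and 10.10 to 10.50 in young short culture. Of the 12, 2 rose and 1 fell in young long against young short culture (median change 0.19), where 5.43% and 5.83% of all probe sets did. In serial transplant long against young short culture 1 rose and 1 fell (median change 0.26), where 3.58% and 5.15% of all did. Young short-culture replicate 2 stood apart, with correlations over all probe sets of 0.991 and 0.990 to the other arrays of its group, which correlated at 0.996 with each other. The mean of 15 fibroblast markers was 9.62 and 8.99 in serial transplant long culture, 9.55, 9.55 and 9.56 in young long culture, and 10.25, 10.69 and 10.16 in young short culture. Of these 15, 13 fell in young long against young short culture (median change -0.83), where 5.83% of all probe sets fell. The count was 12 in serial transplant long against young short culture (median change -1.13), where 5.15% of all fell. The first count was 7, 7 and 5 with young long-culture replicates 1, 2 and 3 left out in turn, and the second 0 with serial transplant replicate 2 left out (median change -0.77). Macrophage markers (8 measured) averaged 5.71 to 5.75 in serial transplant long culture, 5.56 to 5.66 in young long culture and 6.29 to 6.78 in young short culture. Ptprc, Tyrobp, Fcer1g and Laptm5 fell in both comparisons with short culture, but Cd68, Csf1r, Adgre1 and Lyz2 passed in neither. Leydig cell markers (5 measured) averaged 5.48 to 5.53 in serial transplant long culture, 5.41 to 5.50 in young long culture and 6.10 to 6.55 in young short culture. Star and Cyp11a1 fell in both comparisons and Nr5a1 in young long culture only. Cyp17a1 and Hsd3b1, below the median of all probe sets in every group, passed in neither. The mean of 8 Sertoli cell markers lay between 6.71 and 7.00 on all arrays, and 5 of them (Amh, Cldn11, Inha, Dhh and Fshr) were below the median of all probe sets in every group. Wt1 rose by 0.90 in young long and 0.73 in serial transplant long against young short culture (adjusted p = 0.00838 and 0.0344; the second failed with any of 7 arrays left out), and Sox9 fell by 1.07 in serial transplant long culture (adjusted p = 0.0101, and 0.17 with serial transplant replicate 2 left out). All 6 spermatid markers, Prm1 and Prm2 among them, were below the median of all probe sets in every group. The part of these other cell types in the results below was not tested. In such bulk samples fewer cells of a type and less RNA per cell cannot be told apart.

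Most of the 8 genes were higher after long culture. In young long against young short culture 6 rose, Sohlh2, Nanos1, Nanos3, Dazl, Rhox13 and Tex101, Sohlh1 fell, and Nanos2 did not pass (limma over all probe sets, Benjamini-Hochberg adjusted p under 0.05). That is 7 of 8 called where 11.3% of all probe sets were, 5.43% higher and 5.83% lower. Because the 8 genes were chosen with earlier results of these data known, such shares are a description. In serial transplant long against young short culture 5 rose, Sohlh2, Nanos1, Nanos3, Rhox13 and Tex101, and none fell, where 8.73% of all probe sets were called, 3.58% higher and 5.15% lower. Against young long culture none of the 8 passed in the serial transplant line, where 0.0% of all probe sets did; 2 of the 8 had an unadjusted p under 0.05, against 7.18% of all probe sets. Counted by arrays that do not overlap, 6 of the 8 genes were higher and 1 lower in young long against young short culture, where 15.1% and 16.3% of all probe sets were. The counts were 6 higher and 1 lower in serial transplant long against young short culture (18.9% and 18.4% of all), and 3 higher and 1 lower between the long cultures (14.9% and 10.8% of all). The median change of the 8 genes was 0.56, 0.62 and 0.02 in these comparisons, in that order, and the median over all genes -0.04, -0.01 and 0.01. Both comparisons with short culture use the same 3 short-culture arrays, so their values are given side by side and are not independent. No change of the 8 genes reached 1 on the log2 scale.

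**Figure D1:**
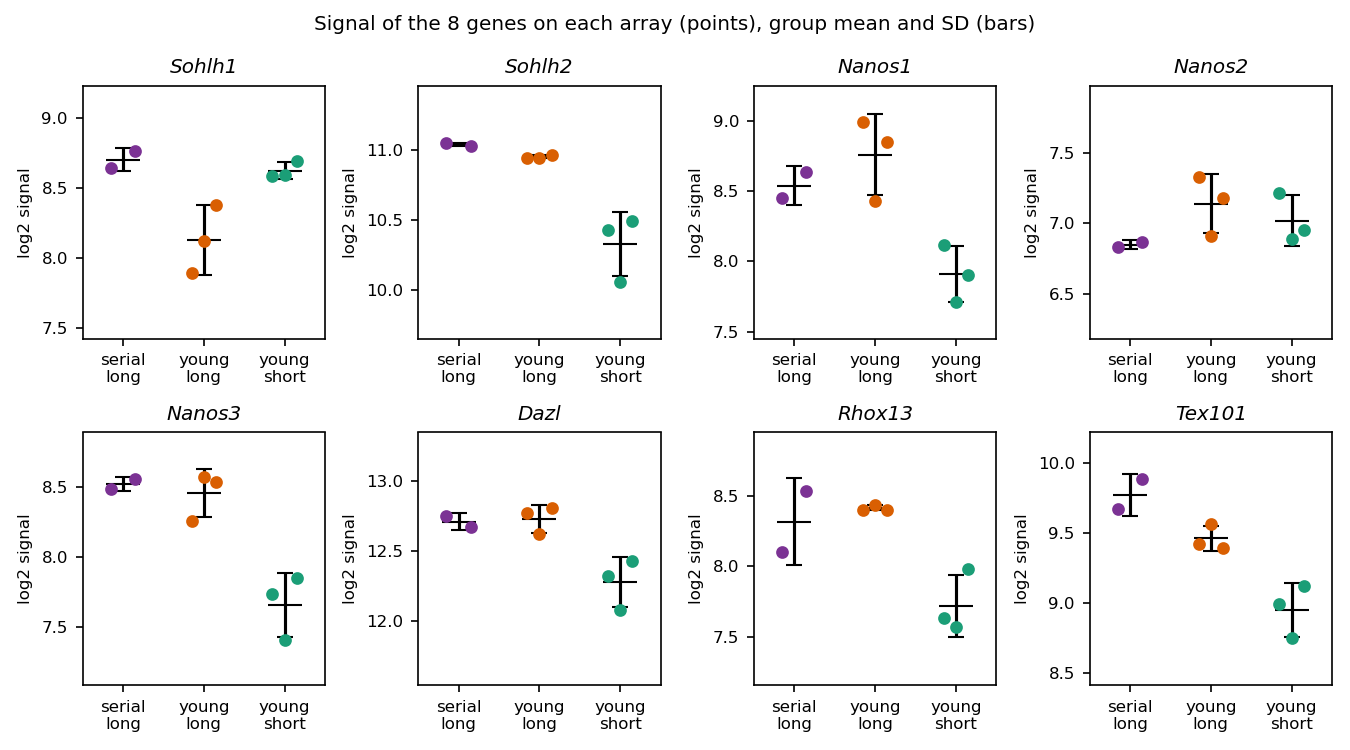
Log2 signal of each of the 8 genes on each array (points) with group mean and SD (bars), for serial transplant long culture (n = 2), young long culture (n = 3) and young short culture (n = 3). Each panel spans the same range of log2 units. In 6 of the 8 panels every long-culture point lies above every short-culture point, and Sohlh1 and Nanos2 are the exceptions.

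Sohlh1 and its partner Sohlh2 did not move together. Sohlh2 read 11.05 and 11.03 in serial transplant long culture, 10.94, 10.94 and 10.96 in young long culture, and 10.43, 10.06 and 10.49 in young short culture. The long-culture arrays lie close together, above all short-culture arrays, and the lowest array is young short-culture replicate 2. Its log2 change was 0.62 ± 0.12 (SE, adjusted p = 0.00898) in young long against young short culture and 0.71 ± 0.13 (adjusted p = 0.00861) in serial transplant long against young short culture, or 1.54-fold and 1.64-fold higher. The serial transplant arrays were also both above the young long-culture arrays, by a change of 0.10 (95% interval -0.19 to 0.38) that did not pass (adjusted p = 0.929).

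Sohlh1 read 8.64 and 8.76 in serial transplant long culture, 7.89, 8.12 and 8.38 in young long culture, and 8.58, 8.59 and 8.69 in young short culture. The young long-culture arrays were the 3 lowest and spread most, while the serial transplant and short-culture arrays overlap. Sohlh1 fell by 0.49 ± 0.12 (SE, adjusted p = 0.0288) in young long against young short culture, to 0.712 of the short-culture signal. The call did not hold with any of 4 arrays left out: young long-culture replicate 1 (adjusted p = 0.110) or 2 (0.0718), or young short-culture replicate 1 (0.0583) or 3 (0.0697). In serial transplant long against young short culture its change was 0.09 (95% interval -0.22 to 0.39, adjusted p = 0.802). Between the long cultures the serial transplant arrays were both above the 3 young arrays, with a change of 0.58 (95% interval 0.27 to 0.88, unadjusted p = 0.00155) that did not pass after adjustment over all probe sets (adjusted p = 0.364, and 0.213 to 0.895 under the alternatives tried).

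The unequal change of the pair was measured within each array, where any scaling of the array cancels. The log2 difference of Sohlh2 minus Sohlh1 was 2.63 ± 0.32 (SD) over the 5 long-culture arrays, which pool both donor kinds, and 1.71 ± 0.20 over the 3 short-culture arrays. The lowest long-culture array was at 2.27 and the highest short-culture array at 1.86. The means differed by 0.92, and by 1.11 with young donors alone. The pair was chosen with its directions known from earlier results of these data, so these values are a description and no p is given.

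SOHLH factors bind E-boxes, DNA words of the form CANNTG, and the sequences before both genes are shown because the pair changed unequally. These are the 250 bases before the start of Sohlh1 (chr2:25847249-25847498, minus strand) and Sohlh2 (chr3:55181794-55182043, plus strand) in the RefSeq table of mouse GRCm38.p6, 5′ to 3′, with each CANNTG in capitals; the pattern reads the same on both strands.
Sohlh1: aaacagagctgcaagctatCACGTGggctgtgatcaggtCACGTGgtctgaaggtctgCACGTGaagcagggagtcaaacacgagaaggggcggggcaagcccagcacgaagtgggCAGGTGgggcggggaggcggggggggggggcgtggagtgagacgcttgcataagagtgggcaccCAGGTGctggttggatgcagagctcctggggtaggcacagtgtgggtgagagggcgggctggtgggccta
Sohlh2: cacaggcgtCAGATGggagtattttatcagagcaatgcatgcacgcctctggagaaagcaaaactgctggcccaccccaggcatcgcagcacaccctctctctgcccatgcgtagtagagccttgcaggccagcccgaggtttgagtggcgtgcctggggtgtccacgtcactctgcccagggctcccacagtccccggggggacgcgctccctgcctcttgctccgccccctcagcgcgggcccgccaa
Sohlh1 has 5 E-boxes, of which 3 are CACGTG, at 231, 211 and 192 bases before the start, counted from the first base of the word. Sohlh2 has 1, a CAGATG. Of 32851 promoter windows of this length in the table, 66.2% hold a CANNTG, 6.02% a CACGTG, which is one form of CANNTG, and 0.0609% hold 3 or more CACGTG. Such a match describes the letters and shows no binding.

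Among the Nanos genes, Nanos1 and Nanos3 rose and Nanos2 did not pass the test in any comparison. Nanos3, needed for the survival of mouse primordial germ cells and present in spermatogonia, read 8.49 and 8.56 in serial transplant long culture, 8.26, 8.57 and 8.54 in young long culture, and 7.74, 7.41 and 7.85 in young short culture. All 5 long-culture arrays lie above all short-culture arrays. The log2 change was 0.79 ± 0.13 (adjusted p = 0.00524) for young long and 0.86 ± 0.15 (adjusted p = 0.00675) for serial transplant long against young short culture, 1.73-fold and 1.81-fold.

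Nanos1, which mouse germ cells can do without, read 8.45 and 8.64 in serial transplant long culture, 8.99, 8.43 and 8.85 in young long culture, and 8.12, 7.71 and 7.90 in young short culture. Its long-culture arrays were again all above the short-culture ones, with the serial transplant arrays inside the spread of the young long-culture arrays. The changes were 0.85 ± 0.15 (adjusted p = 0.00732) in young long and 0.63 ± 0.17 (adjusted p = 0.0422) in serial transplant long culture, each against young short culture. The serial transplant call did not hold with serial transplant replicate 1 (adjusted p = 0.0955) or 2 (0.340), young short-culture replicate 2 (0.0942) or 3 (0.0687), or young long-culture replicate 3 (0.0657) left out.

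Nanos2 was dim, at 6.83 and 6.87 in serial transplant long culture, 7.33, 6.91 and 7.18 in young long culture, and 7.22, 6.89 and 6.95 in young short culture. The young groups overlap, and both serial transplant arrays are the lowest of the 8. The log2 change was 0.12 (95% interval -0.16 to 0.40, adjusted p = 0.591) in young long against young short culture, -0.17 (-0.48 to 0.14, adjusted p = 0.566) in serial transplant long against young short culture and -0.29 (-0.61 to 0.02, adjusted p = 0.721) between the long cultures.

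The per-array difference of Nanos3 minus Nanos2 was 1.46 ± 0.32 (SD) over the 5 long-culture arrays and 0.65 ± 0.22 over the 3 short-culture arrays. The lowest long-culture array was at 0.93 and the highest short-culture array at 0.89. After quantile normalization these were 0.90 and 0.92, so the arrays then overlapped. The means differed by 0.81. This pair too was chosen with its values known, so the difference is a description with no p. Nanos2 was dim, and Nanos3 alone changed by 0.79 and 0.86.

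The windows of Nanos2 (chr7:18987274-18987523, plus strand) and Nanos3 (chr8:84176553-84176802, minus strand) are printed as the gene pair whose changes differed, 250 bases before each start, 5′ to 3′, with CANNTG in capitals.
Nanos2: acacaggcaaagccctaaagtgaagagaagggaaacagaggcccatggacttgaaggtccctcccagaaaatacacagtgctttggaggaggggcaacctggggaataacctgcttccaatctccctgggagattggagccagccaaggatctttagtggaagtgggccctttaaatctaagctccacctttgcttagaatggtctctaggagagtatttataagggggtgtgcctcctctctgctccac
Nanos3: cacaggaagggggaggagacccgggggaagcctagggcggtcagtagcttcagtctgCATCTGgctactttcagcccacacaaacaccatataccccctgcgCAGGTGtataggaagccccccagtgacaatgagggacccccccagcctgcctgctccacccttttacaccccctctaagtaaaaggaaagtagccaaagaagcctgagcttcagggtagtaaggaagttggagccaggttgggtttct
Nanos2 has neither a CANNTG nor a CG dinucleotide in this window, and 7.87% of all windows have no CG. Nanos3 has 2 E-boxes and 3 CG dinucleotides, a ratio of observed to expected CG of 0.15 where the median window has 0.37. Nanos1, at 25 CG dinucleotides and a ratio of 0.85, lies above the upper quartile of all windows (0.72). DNA methylation was not measured here.

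Dazl was bright on every array. It read 12.75 and 12.67 in serial transplant long culture, 12.77, 12.62 and 12.81 in young long culture, and 12.32, 12.08 and 12.43 in young short culture. The long-culture arrays do not overlap the short-culture arrays, and both long cultures overlap each other. Its log2 change was 0.46 ± 0.11 (SE, 1.37-fold, adjusted p = 0.0254) in young long against young short culture and 0.43 ± 0.13 (1.35-fold, adjusted p = 0.0557) in serial transplant long against young short culture, where only the first passed. The first call did not hold with young short-culture replicate 1 (adjusted p = 0.0515) or 2 (0.0589) or young long-culture replicate 1 (0.0880) or 3 (0.111) left out. The second had adjusted p between 0.0219 and 0.236 under the alternatives and passed in 5 of 15. Between the long cultures the change was -0.02 (95% interval -0.30 to 0.25).

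The window before Dazl is given because it holds many CG dinucleotides, unlike that of Nanos2 (chr17:50293621-50293870, minus strand, 250 bases before the start, 5′ to 3′, CANNTG in capitals).
Dazl: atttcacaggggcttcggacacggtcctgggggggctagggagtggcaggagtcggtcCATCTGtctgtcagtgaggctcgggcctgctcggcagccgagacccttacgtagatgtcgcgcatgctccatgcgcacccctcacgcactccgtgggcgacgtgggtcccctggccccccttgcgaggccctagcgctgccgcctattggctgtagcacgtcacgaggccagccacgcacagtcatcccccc
This window holds 20 CG dinucleotides and 1 E-box. Its CG ratio is 0.71, where the median window has 0.37 and the upper quartile of all windows is 0.72. Any link between these letters and the signal was not tested.

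Rhox13, an X-linked homeobox gene of the mouse testis that is translated in differentiating spermatogonia, read 8.10 and 8.54 in serial transplant long culture, 8.40, 8.44 and 8.40 in young long culture, and 7.63, 7.57 and 7.98 in young short culture. The serial transplant arrays are wide apart, on either side of the 3 young long-culture arrays, and all 5 are above the short-culture arrays. The change was 0.69 ± 0.14 (adjusted p = 0.0109) for young long against young short culture. For serial transplant long against young short culture it was 0.60 ± 0.15 (adjusted p = 0.0348), a call that did not hold in 8 of 15 alternatives, among them the fit without serial transplant replicate 2 (change 0.38, adjusted p = 0.389), without young short-culture replicate 1 (0.0924) or 2 (0.0778), and without young long-culture replicate 1 (0.0522), 2 (0.0553) or 3 (0.0604).

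Tex101, which encodes a glycoprotein anchored to the germ cell surface and needed for male fertility in the mouse, read 9.67 and 9.88 in serial transplant long culture, 9.42, 9.56 and 9.39 in young long culture, and 8.99, 8.75 and 9.12 in young short culture. As for Sohlh2, the 3 groups form 3 separate steps with no overlap, serial transplant highest and young short culture lowest. The log2 change was 0.82 ± 0.13 (1.76-fold, adjusted p = 0.00566) for serial transplant long and 0.51 ± 0.12 (1.42-fold, adjusted p = 0.0205) for young long, each against young short culture. The step between the long cultures, 0.31 (95% interval 0.02 to 0.60, unadjusted p = 0.0369), did not pass after adjustment (adjusted p = 0.659). The young call did not hold with young long-culture replicate 1 (adjusted p = 0.0584), 2 (0.0665) or 3 (0.0617) left out.

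**Figure D2:**
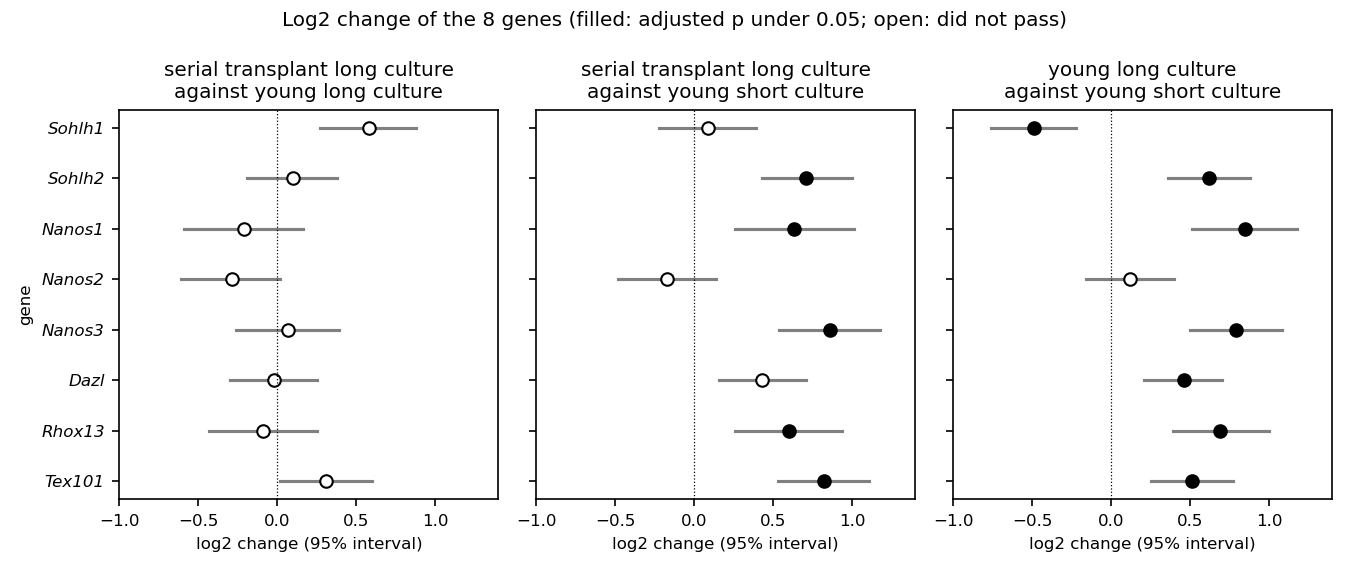
Log2 change of each gene (points) with limma's 95% interval (bars) in the 3 comparisons, from serial transplant long against young long culture at the left to young long against young short culture at the right. Filled points passed an adjusted p of 0.05: 0, 5 and 7 of the 8 genes from left to right.

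Single arrays carried part of these counts. Without serial transplant replicate 2, which had the lowest fibroblast mean (8.99), none of the 8 genes passed against young short culture, where 66 of all probe sets did, and the changes of Sohlh2 (0.72), Nanos3 (0.82) and Tex101 (0.71) had adjusted p of 0.108, 0.106 and 0.104; 1 array then stands for the group and is assumed to vary like the others. Without young short-culture replicate 2 the count there was 3 of 8, and 3 of 8 also without young long-culture replicate 3. In young long against young short culture 4 of 8 passed without young long-culture replicate 1, where 1383 of all probe sets did, against 3260 with all arrays in. Counts over all probe sets in serial transplant long against young short culture also moved with arrays left out, as given in the last section. A lower count of the 8 genes there therefore cannot be read as particular to them. Young short-culture replicate 2 was the lowest of the 8 arrays for Sohlh2, Nanos1, Nanos3, Dazl, Rhox13 and Tex101, and it had the highest fibroblast mean (10.69) and the lowest germ cell mean (10.10).

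**Figure D3:**
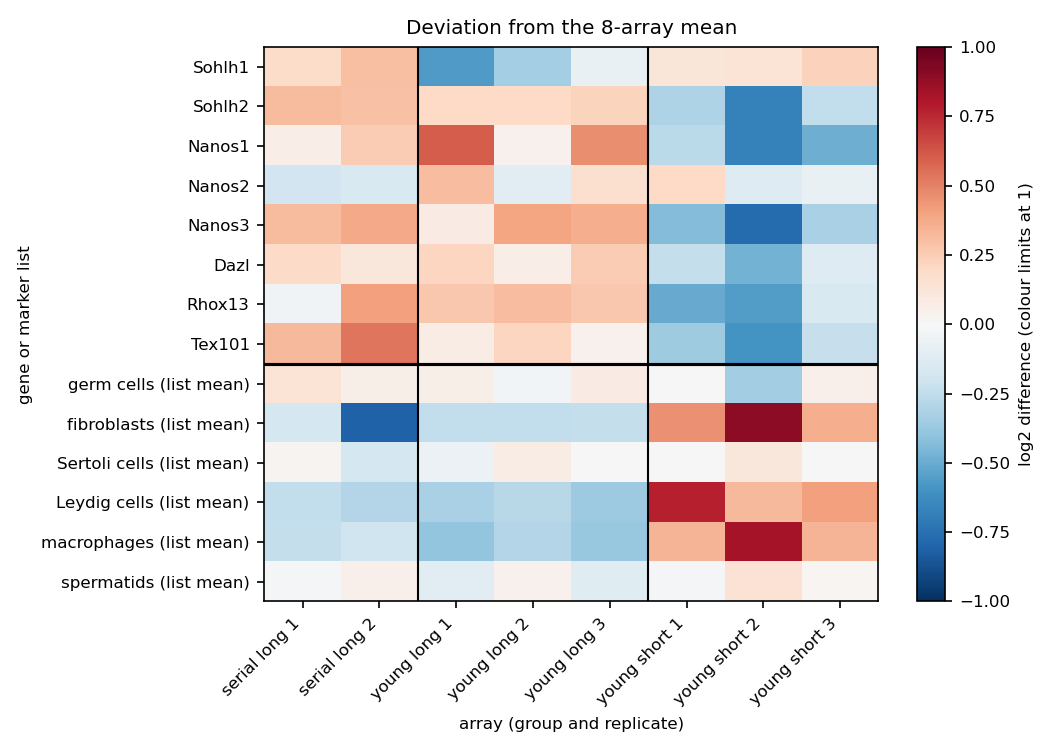
Deviation of each array from the 8-array mean (log2 units, colour) for the 8 genes and for the mean of 6 marker lists, with arrays grouped as serial transplant long, young long and young short culture. Short-culture arrays are low in 6 of the 8 genes and high in the fibroblast, Leydig cell and macrophage lists, with young short-culture replicate 2 at a fibroblast mean of 10.69.

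Other genes of these pathways moved in part. The lists used for them were also chosen with earlier results of these data known, so their shares are a description. Some genes, Kit, Neurog3, Stra8, Taf7l and Dnd1 among them, are shared between lists, so the list counts below are not separate. Over 8 lists of related genes, which hold 109 further measured genes, 14 rose and 8 fell in young long against young short culture (median change 0.08, against -0.04 over all genes), and 12 rose and 7 fell in serial transplant long against young short culture (0.17, against -0.01). These are 12.8% higher and 7.34% lower, where 5.43% and 5.83% of all probe sets were, and 11% higher and 6.42% lower, where 3.58% and 5.15% were, so the shares that fell are near those of all probe sets. With young long-culture replicates 1, 2 and 3 left out in turn, the first pair of counts became 3 and 6, 9 and 10, and 2 and 7, and with young short-culture replicate 2 left out 8 and 7. With serial transplant replicates 1 and 2 left out in turn, the second pair became 6 and 5, and 0 and 2, with young long-culture replicate 3 left out 7 and 6, and with young short-culture replicate 1 left out 5 and 6. Between the long cultures none of the 109 passed. Of the calls named in the following lists, those of Kit, Id4, Bcl6b, Lhx1, Nobox, Meioc, Tdrd9 and Tex19.1 in young long against young short culture held with each of the 8 arrays left out in turn, as did those of Tdrd9 and Tex19.1 in serial transplant long against young short culture. Against young short culture the serial transplant calls of Stra8, Kit, Neurog3, Id4, Eomes and Lin28a failed with serial transplant replicate 2 left out (adjusted p between 0.0576 and 0.0979), and held with each other array left out.

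Of 15 genes listed for spermatogonial differentiation outside the 8, 4 rose and none fell in each comparison with short culture. The median change was 0.24 in young long and 0.32 in serial transplant long culture. The risers are 26.7% in each, where 5.43% of all probe sets rose in young long and 3.58% in serial transplant long culture. Ddx4, Sall4 and Uchl1 of this list are also among the germ cell markers above. Sall4, on the list of undifferentiated spermatogonia too, did not pass in either comparison with short culture. Uchl1 rose in serial transplant long culture but serves as a general germ cell marker here, so a rise in this list need not mark differentiation. Kit, the receptor of differentiating spermatogonia, averaged 10.11 ± 0.08 (SD) in serial transplant long culture, 10.31 ± 0.05 in young long culture and 8.90 ± 0.38 in young short culture, changes of 1.21 ± 0.18 (SE, adjusted p = 0.00411) and 1.41 ± 0.16 (adjusted p = 0.00123). Stra8, which retinoic acid induces before meiosis, averaged 8.82 ± 0.16 in serial transplant long culture, 8.19 ± 0.38 in young long culture and 7.05 ± 0.56 in young short culture, changes of 1.77 ± 0.28 (adjusted p = 0.00544) and 1.14 ± 0.25 (adjusted p = 0.0173). Dmrtb1 (0.39) and Taf7l (0.39) rose in young long culture, and Uchl1 (0.64) and Tex15 (0.68) in serial transplant long culture. Dmrtb1 failed with any of the 6 young arrays left out (adjusted p up to 0.184), Taf7l with any of 7 arrays, Tex15 with any of 4, and Uchl1 with either serial transplant array. Beside these, the fibroblast means were lower in long culture, as given above. Stra8 did not pass in young long culture with young long-culture replicate 2 or 3 or young short-culture replicate 1 left out. The 4 risers numbered 2, 2 and 1 with young long-culture replicates 1, 2 and 3 left out and 1 and 2 with young short-culture replicates 1 and 2 left out; in serial transplant long culture they numbered 2 and 0 with serial transplant replicates 1 and 2 left out.

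Among 21 markers of undifferentiated spermatogonia 3 rose and 3 fell in young long against young short culture, and 3 rose and 4 fell in serial transplant long against young short culture. As shares these are 14.3% each way in young long culture (5.43% and 5.83% of all probe sets), and 14.3% higher and 19.0% lower in serial transplant long culture (3.58% and 5.15%). Neurog3, a transcription factor of spermatogonia on the way to differentiation, averaged 8.00 ± 0.09 in serial transplant long culture, 7.67 ± 0.05 in young long culture and 7.18 ± 0.17 in young short culture, and rose in both (0.81 ± 0.12 and 0.49 ± 0.11). Its young call failed with young long-culture replicate 1 or 3 left out. Id4, an inhibitor of differentiation, fell in both, by 0.83 ± 0.13 in serial transplant long and by 0.80 ± 0.12 in young long culture. Bcl6b and Lhx1, genes that GDNF signalling keeps up in mouse spermatogonial stem cells, fell as well. The change of Bcl6b was -0.89 ± 0.18 in serial transplant long and -1.0 ± 0.16 in young long culture, and that of Lhx1 -1.39 ± 0.25 in serial transplant long and -1.30 ± 0.23 in young long culture, where its means of 6.59 and 6.68 are dim. Ret, a gene of the GDNF receptor complex, went the other way and rose in young long culture (0.75 ± 0.19, adjusted p = 0.0281), a call lost with any of 3 arrays left out. Its change was 0.40 ± 0.21 (adjusted p = 0.311) in serial transplant long culture. Gfra1, also a gene of that complex, changed by 0.04 ± 0.15 (adjusted p = 0.923) in serial transplant long and 0.18 ± 0.13 (adjusted p = 0.438) in young long culture. Etv5, which GDNF also induces, changed by 0.12 ± 0.18 (adjusted p = 0.785) in serial transplant long and 0.03 ± 0.16 (adjusted p = 0.918) in young long culture. Eomes averaged 6.06 ± 0.20 in serial transplant long culture, a dim level, against 7.29 ± 0.28 in young long and 7.34 ± 0.27 in young short culture. It fell against short culture (-1.27 ± 0.19, adjusted p = 0.00404), and its change of -1.23 between the long cultures did not pass (adjusted p = 0.114). No marker rose in young long culture with young long-culture replicate 1 or 3 left out, and 1 did with young short-culture replicate 2 left out; with serial transplant replicate 2 left out none rose or fell in serial transplant long culture, and 2 fell with replicate 1 left out. Of 10 genes linked to SOHLH factors in germ cells, Kit and Neurog3 rose in both comparisons with short culture, neither of them in serial transplant long culture with serial transplant replicate 2 left out. Kit and Neurog3, both on lists above too, are 20.0% of this list, where 5.43% of all probe sets rose in young long and 3.58% in serial transplant long culture. Nobox, an oocyte homeobox gene, averaged 6.52 ± 0.16 in young long and 7.26 ± 0.07 in young short culture and fell there (-0.74 ± 0.11, adjusted p = 0.00388), with its long-culture mean in the dim range. It is 10.0% of the list, where 5.83% of all probe sets fell.

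Partners of the NANOS proteins in mRNA decay rose in small number. Of 19 measured genes of the CCR4-NOT complex, the Pumilio proteins and decay factors, 3 rose and none fell in each comparison with short culture (median 0.18 in young long and 0.20 in serial transplant long culture), or 15.8% against 5.43% and 3.58% of all probe sets. In young long culture these were the CCR4-NOT subunit genes Cnot2 (0.45 ± 0.09) and Cnot10 (0.45 ± 0.10) and the exonuclease gene Xrn1 (0.45 ± 0.10). In serial transplant long culture they were Cnot7 (0.64 ± 0.16), which encodes a catalytic deadenylase subunit, Cnot10 (0.41 ± 0.11) and Dnd1 (0.48 ± 0.13), whose product binds RNA together with NANOS2 in mouse germ cells. With young long-culture replicate 1 or 3 left out, none of these 19 rose in young long culture. Among the same 19, none rose in serial transplant long culture with either serial transplant array, young long-culture replicate 3, or young short-culture replicate 1 or 2 left out, and 1 did with young long-culture replicate 2 left out.

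Of 24 RNA-binding and RNA-processing genes of germ cells outside the 8, 3 rose and 1 fell in young long against young short culture. In serial transplant long against young short culture 2 rose and 1 fell. These 2, Lin28a and Dnd1, are on lists above as well. The risers are 12.5% and 8.33%, where 5.43% and 3.58% of all probe sets rose, and the faller is 4.17% in each, below the 5.83% and 5.15% of all probe sets. Lin28a, an inhibitor of let-7 microRNA maturation, rose in both (0.45 ± 0.11 in young long and 0.74 ± 0.12 in serial transplant long culture), in young long culture not with any of 5 arrays left out. Meioc, a partner of the meiotic RNA helicase YTHDC2, averaged 9.51 ± 0.33 in young long and 8.41 ± 0.25 in young short culture (1.11 ± 0.17, adjusted p = 0.00385). Tdrd9, a helicase of the piRNA pathway, fell by 2.10 ± 0.17 in young long and by 1.80 ± 0.19 in serial transplant long culture, to dim means of 5.98 and 6.27, which may be background. The risers numbered 1 in young long culture with any young long-culture array or young short-culture replicate 1 or 2 left out. Those in serial transplant long culture numbered 0 with serial transplant replicate 2 left out, 1 with young long-culture replicate 3 or young short-culture replicate 1 or 2 left out, and 5 with young short-culture replicate 3 left out. The faller in young long culture was joined by another with young long-culture replicate 2 left out, which made 2.

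Of 11 mRNAs reported as bound or regulated by DAZL or NANOS2 in mouse germ cells, 3 rose and 1 fell in each comparison with short culture, and none passed between the long cultures. That is 27.3% higher and 9.09% lower, against 5.43% and 5.83% of all probe sets in young long and 3.58% and 5.15% in serial transplant long culture. Those that rose were Stra8, Dmc1 (0.68 in young long and 0.75 in serial transplant long culture), Taf7l in young long culture and Sycp3 (0.51 ± 0.13) in serial transplant long culture. The risers in young long culture numbered 0 with young long-culture replicate 2 or 3 left out, and 1 with replicate 1, either serial transplant array or young short-culture replicate 1 left out. In serial transplant long culture they numbered 0 with serial transplant replicate 2 left out, and 1 with replicate 1, young long-culture replicate 2 or 3 or young short-culture replicate 1 left out. Tex19.1, which helps to keep transposable elements in check in germ cells, fell in both, averaging 6.02 ± 0.68 in serial transplant long and 6.25 ± 0.26 in young long culture, against 9.76 ± 0.26 in young short culture, with both long-culture means in the dim range.

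The genes nearest to Rhox13 and Tex101 by family did not follow them as groups. Of 7 measured Rhox genes other than Rhox13, Rhox1 fell in young long against young short culture (-0.42 ± 0.11, adjusted p = 0.0351) and Rhox10 rose in serial transplant long against young short culture (0.66 ± 0.15, adjusted p = 0.0233), with Rhox10 dim at 6.67 in serial transplant long and 6.01 in young short culture. Of 14 Rhox genes listed, 7 were measured, and none of the listed Rhox2, Rhox3 and Rhox4 copies was among them. Many Rhox genes are near-identical copies, and their probe sets can share targets. Rhox1 failed with any of 5 arrays left out (adjusted p up to 0.157), and Rhox10 with serial transplant replicate 2 or young short-culture replicate 1 left out (up to 0.291). Of 15 measured genes of the LY6 family and of proteins linked to TEX101, Lypd6 rose (0.53 ± 0.14) and Ly6e fell (-0.73 ± 0.15) in young long culture, and Adam4, dim in both groups, fell (-0.66 ± 0.17) in serial transplant long culture. With young long-culture replicate 1 left out neither Lypd6 nor Ly6e passed, and Adam4 failed with any of 5 arrays left out (adjusted p up to 0.408). The list medians were -0.01 and -0.03 in young long and -0.01 and 0.03 in serial transplant long culture, for the Rhox and the LY6 list in turn. Of the Rhox list 14.3% fell in young long and 14.3% rose in serial transplant long culture, where 5.83% and 3.58% of all probe sets did. Of the LY6 list 6.67% rose and 6.67% fell in young long culture, and 6.67% fell in serial transplant long culture. These are near the 5.43%, 5.83% and 5.15% of all probe sets.

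**Figure D4:**
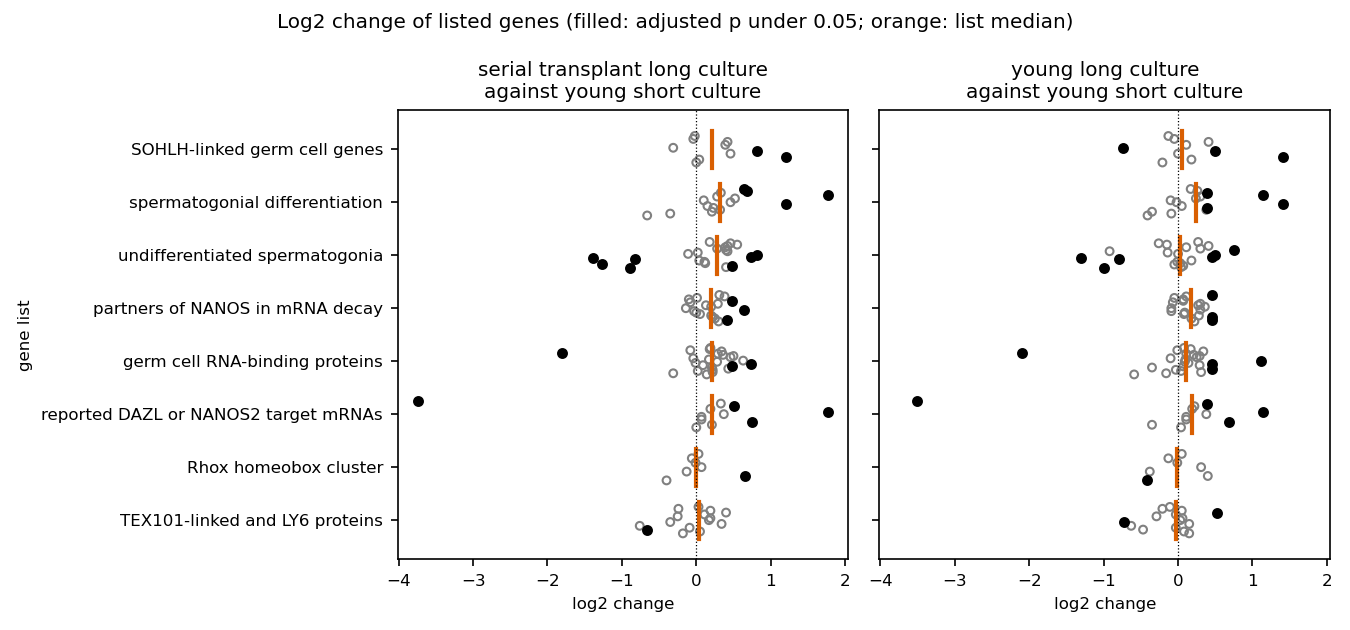
Log2 change of every measured gene (points) of 8 related gene lists in serial transplant long against young short culture (left) and young long against young short culture (right), with filled points for an adjusted p under 0.05 and an orange line at the list median. The list medians lie between -0.03 and 0.32, and Tex19.1 at -3.74 and -3.51 is the lowest point in the panels.

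The genes whose 8 array values, after centring, came closest to each member were sought among 10588 named genes whose mean exceeded 6.94. Likeness was the root mean square difference over the 8 arrays in log2 units, which is a description. Tex101 was closest to Neurog3, at 0.04, where Tex101 itself varied by 0.35 about its mean, and then to Lsm6 (0.07). Nanos1 was closest to Nusap1 (0.07) and H2bc3 (0.09), a spindle protein gene and a histone gene, and Rhox13 to Lrrc42 (0.07) and Pttg1 (0.08), the securin gene. Sohlh2 was closest to Otulin and Zcchc14 (0.06 each), Nanos3 to Tbc1d31 (0.06) and Fbn2 (0.07), and Dazl to Dym and Brd3 (0.04 each). Sohlh1 had the least close neighbours, Eif4ebp1 (0.10) and Slc25a1 (0.11), and Nanos2, which varied least (0.18), was near Zfp408 and Relch (0.05 each). None of the 8 genes was among the closest neighbours of another. Only the 2 closest of 10588 genes were kept for each, so this says little about how alike the 8 are.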

How the data were processed

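Per the submitters' processing notes the authors made the values with Partek 6.4 and RMA, and the deposited table holds 1 log2 signal for each probe set on each array. Settings, probe filters and genome build do not appear in the sources used here. Values run from 2.16 to 14.81 with array medians of 6.90 to 6.98, and no 2 arrays are identical. Of 35557 rows, 6613 with identifiers in a run ahead of the main probe sets were taken as controls and left out. Genes were named through probe sets with 1 symbol (21789), updated by gene number from RefSeq (21698 found). Groups follow the titles. The 3 comparisons were fitted together in limma 3.58.1 (R 4.3.3; 1 coefficient per group, eBayes, 5 residual plus 6.28 prior degrees of freedom), as two-sided tests adjusted over 28944 probe sets at 0.05. The alternatives were an intensity trend, array weights, only the groups compared, no dim probe sets, quantile normalization, centred arrays, a log2 change of at least 1, a replicate block and each array left out. For the lists and for genes named outside the 8 the last was added after seeing the data. Exact permutation tests of the 2 gene pairs were run (SciPy 1.17.1), but their p-values are not given, since the pairs were chosen with their values known. The fit was tested on simulated data. Members, lists and pairs were chosen with earlier results of these data known. All 8 members are named in each comparison. Of each list, up to 3 genes past the test with the smallest p per comparison are named. Further ones, Taf7l, Tex15, Ret, Gfra1, Etv5, Wt1 and Sox9 among them, were named after their values were seen. Same-numbered arrays did not deviate together (correlations of -0.268 to 0.176), so the numbers were not taken as pairs. The number of arrays limits the precision.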

Additional observations from a re-analysis of the deposited data

How the results depend on the processing

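Of 360 repeats of the 24 changes of the 8 genes, 322 kept their direction and side of the threshold, 28 no longer passed, 5 passed that had not, and 5 turned sign. Those 5 are changes near 0 between the long cultures: with 1 array left out Nanos3 ranged from -0.03 to 0.12, Rhox13 from -0.31 to 0.13 and Dazl from -0.08 to 0.02, and Dazl was at 0.04 with the replicate block. In young long against young short culture 4 to 7 of the 8 genes and 1085 to 3195 of all probe sets passed with 1 array left out, 0 and 396 with a log2 change of at least 1, and 5079 of all with array weights. In serial transplant long against young short culture 0 to 5 and 66 to 2817 passed with 1 array left out (66 without serial transplant replicate 2, 1528 without replicate 1), 3 and 1252 when only these groups were fitted, and 0 and 564 with a log2 change of at least 1. Between the long cultures none of the 8 passed in any alternative, where 22 of all probe sets passed with array weights, 15 with only these groups, 4 with the replicate block and 0 to 11 with 1 array left out. With 1 array left out Sohlh2 minus Sohlh1 differed by 0.80 to 1.01 and Nanos3 minus Nanos2 by 0.75 to 0.95. With young donors alone they differed by 1.11 and 0.67. After quantile normalization Nanos3 minus Nanos2 differed by 0.79, with its lowest long-culture array (0.90) below its highest short-culture array (0.92). With the replicate block 7, 6 and 0 of the 8 genes passed, Dazl joining in serial transplant long against young short culture. In young long against young short culture 2754 of all probe sets passed with this block. The replicate numbers share no known source. Each member has 1 probe set, so a mean over probe sets gives the same values. The cause of these differences was not tested.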
